A study of Phaseolus vulgaris with 12 samples.

Results

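The 3 genes described here are 1 locus annotated as WRKY DNA-binding protein 33 (Phvul.010G062500) and 2 loci annotated as WRKY DNA-binding protein 40 (Phvul.010G161100 and Phvul.001G042200), out of 22542 loci measured by RNA sequencing in leaves of common bean (Phaseolus vulgaris). They were chosen by gene name because their values in these 12 libraries set a response of 1 variety beside a response of both, so their levels and changes are given as a description, with no test. The libraries form 4 groups of 3, all from true leaves. The 120 cold group is variety 120, called cold-tolerant in the design text, kept at 4 °C for 3 days, and the 120 control group is the same variety without cold. The 093 cold group is variety 093, called cold-sensitive, after the same cold treatment, and the 093 control group is 093 without cold. All plants had 12 h of light per day, but the cold groups stood in an incubator and the controls on a culture rack, so cold and place cannot be told apart. Each variety and treatment had 3 pots of 4 seeds, but nothing ties a library to its own pot or plant, and the p-values below therefore reflect only library-to-library spread, possibly technical.

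WRKY factors are plant transcription factors named after a conserved stretch of their DNA-binding domain, and most bind a short promoter element called the W-box. In Arabidopsis, WRKY33 is switched on by fungal and bacterial elicitors, is phosphorylated by MAP kinases, and is needed for resistance to necrotrophic fungi. WRKY40 in Arabidopsis acts mainly as a repressor, together with WRKY18 and WRKY60, in defence, abscisic acid signalling and the response of organelles to stress. In the deposited annotation all 3 bean loci carry the same KEGG entry, K13424, and the same pathway, plant-pathogen interaction, and they share 6 of the 14 gene ontology terms that each has. The 2 WRKY40 loci have identical terms, including responses to chitin, wounding and salicylic acid, while the terms of the WRKY33 locus include responses to ethylene and jasmonic acid and regulation of the defence response to fungus. The WRKY33 locus combines 2 transcript models, the annotated one and 1 assembled from the reads, and each WRKY40 locus holds 1 annotated transcript.

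Values are the authors' FPKM, fragments scaled by transcript length and by mapped fragments, so levels can be set beside each other between genes. Per library the FPKM summed to between 313320.2 and 350100.3, and between 12091 and 13357 loci reached 1 FPKM. Read totals are unknown. By the commonest ratio between their low values the libraries spanned relative depths of 1 to 1.39, a rough estimate that in 1 library rested on 18 loci. Rubisco activase, a defining leaf protein, reached 17655 FPKM, and the summed FPKM of 17 leaf marker loci was 7611 to 11959 in 120 cold, 27649 to 30342 in 120 control, 9918 to 10642 in 093 cold and 21717 to 32016 in 093 control. The sum was thus lower in both cold groups, and the part of this in the results below was not tested. No description named leghemoglobin or phaseolin, and the 1 oleosin locus, a seed protein, stayed at or below 0.186 FPKM. Broader words did match, with 39 loci named after seed storage families (up to 214 FPKM) and 89 named as nodulins (up to 255 FPKM). Summed per library, the seed list gave 227 to 523 FPKM and the nodule list 603 to 898 FPKM. In these bulk samples fewer cells of a type and less RNA per cell cannot be told apart. 093 control library 3 held the highest value of its group at 57.7% of 14716 tested loci, and it did so at 6 of the 9 loci described as WRKY 33 or WRKY 40.

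The WRKY33 locus Phvul.010G062500 was high in one group only. It reached 53.5, 35.4 and 34.3 FPKM in the 120 cold libraries, against 0.125, 0.0463 and 0.0804 FPKM in the 120 control libraries. In variety 093 it had 0.554, 0.401 and 0.931 FPKM in the cold libraries, against 0.202, 0.0428 and 1.07 FPKM in the control libraries. Every 120 cold library lay above all 9 others, while in 093 the cold and control libraries overlapped. The group means were 41.1 ± 10.8 FPKM in 120 cold, 0.0838 ± 0.0393 FPKM in 120 control, 0.629 ± 0.273 FPKM in 093 cold and 0.440 ± 0.555 FPKM in 093 control (SD, n = 3 throughout). The 2 cold groups therefore differed by a ratio of means of 65.3, and the 120 groups by a ratio of 489.9 whose lower value rests on very low FPKM. By mean level this locus ranked 1666th of 22542 loci in 120 cold and 14414th in 093 cold.

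On the log2(FPKM + 1) scale, which understates changes of low genes, the fitted cold response of Phvul.010G062500 was 5.25 in 120 (SE 0.256) and 0.23 in 093 (SE 0.256). The difference of these responses, 120 minus 093, was 5.02 (SE 0.362), the fourth highest of the 14716 loci tested. The 120 response ranked 81st from the top and the 093 response 8169th. Without cold the varieties differed by -0.34 (SE 0.256, 120 minus 093) with overlapping libraries, and under cold by 4.67 (SE 0.256). Without 093 control library 3, the highest of its group here, the 093 response was 0.53, and with quantile normalization it was -0.15. The 120 response stayed between 4.93 and 7.80 under all alternatives tried.

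**Figure D1:**
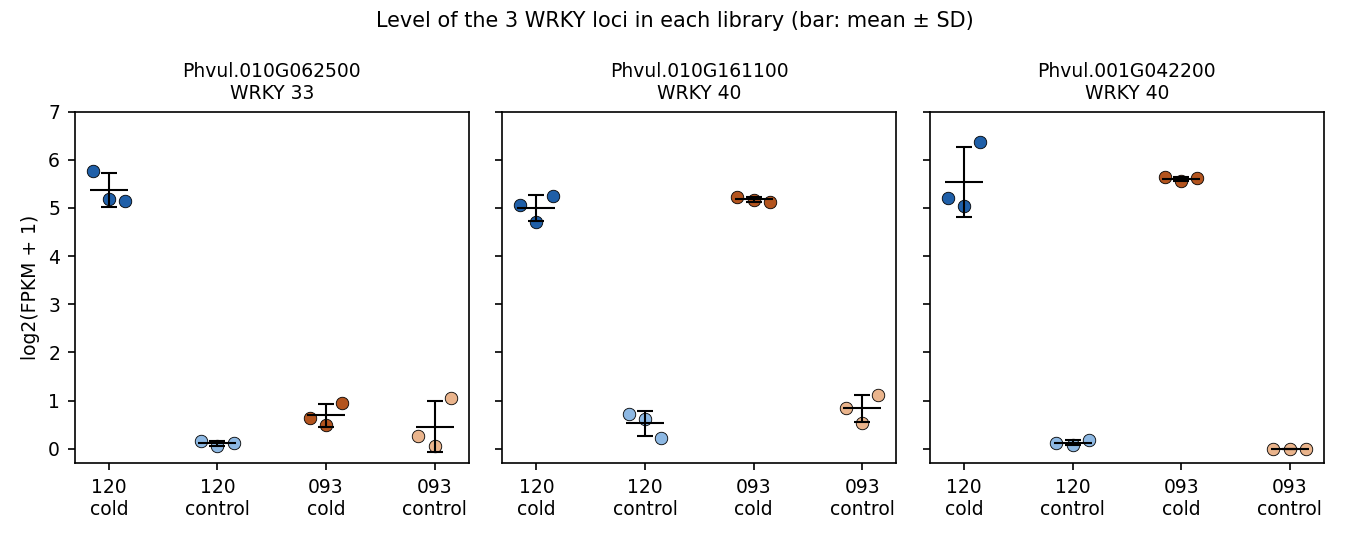
Level of the 3 WRKY loci in each of the 12 libraries as log2(FPKM + 1), with points for libraries and bars for mean ± SD of a group's 3 libraries. Phvul.010G062500 is high in 120 cold only, while both WRKY40 loci are high in the cold libraries of both varieties.

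The WRKY40 locus Phvul.010G161100 was high under cold in both varieties. It stood at 32.5, 25.1 and 36.8 FPKM in 120 cold, against 0.648, 0.541 and 0.171 FPKM in 120 control. In 093 it stood at 36.6, 34.9 and 34.0 FPKM under cold, against 0.808, 0.457 and 1.17 FPKM in control. The cold and control libraries did not overlap in either variety, whereas the varieties overlapped both under cold and without it. The ratio of group means was 69.4 in 120 and 43.4 in 093. The fitted log2 responses were 4.48 in 120 and 4.34 in 093 (SE 0.192 each), and they differed by 0.14 (SE 0.271).

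The second WRKY40 locus, Phvul.001G042200, was also high under cold in both varieties. It stood at 35.7, 31.9 and 81.5 FPKM in 120 cold, against 0.0809, 0.0609 and 0.129 FPKM in 120 control. In 093 it stood at 48.6, 46.2 and 48.2 FPKM under cold and was listed at 0 in all 3 control libraries. The cold and control libraries did not overlap in either variety, the varieties overlapped under cold, and without cold the 120 libraries lay above the 093 libraries. 120 cold library 3 stood apart from the other two of its group, and the SD was 27.6 FPKM in 120 cold, against 1.304 FPKM in 093 cold. The fitted log2 responses were 5.41 in 120 and 5.60 in 093 (SE 0.269 each), ranking 74th and 47th from the top, and differed by -0.20 (SE 0.381). Without 120 cold library 3 the 120 response was 4.99 and the difference -0.61.

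As a background for these patterns, every cold library lay above every control library at 42.2% of all tested loci in 120 and at 50.7% in 093. Every 120 library lay above every 093 library at 19.8% of loci under cold and at 25.1% without cold. The median log2 response of all tested loci was 0.18 in 120 and 0.43 in 093. Relative to these medians the responses in 120 and 093 were 5.07 and -0.19 for Phvul.010G062500, 4.30 and 3.91 for Phvul.010G161100, and 5.23 and 5.18 for Phvul.001G042200. The 2 WRKY40 loci therefore lay far above the middle of the distribution in both varieties, and the WRKY33 locus in 120 alone.

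Another 6 loci carry the same descriptions, 3 as WRKY 33 and 3 as WRKY 40, and unlike the 3 above they were taken by description rather than by level. They were tested with limma across all loci, and calls needed both an adjusted p under 0.05 and a log2 change of 1 or more in size. All 6 of 6 rose under cold in 120, where 27.8% of tested loci were called higher and 18.6% lower, and all 6 of 6 rose in 093, where 33% were called higher and 15.2% lower. Their median response was 3.99 in 120 and 3.51 in 093. Loci of 1 family may share reads where their sequences are alike, and neither their likeness nor the division of such reads was tested.

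Among the other WRKY33 loci, Phvul.008G251300 was the most abundant of all 9 in every group, at 192 ± 25.9 FPKM in 120 cold, 27.3 ± 2.79 FPKM in 120 control, 138 ± 6.01 FPKM in 093 cold and 36.2 ± 12.1 FPKM in 093 control. It rose by 2.77 in 120 (limma adjusted p = 1.6e-07) and by 1.95 in 093 (limma adjusted p = 2.6e-06). Phvul.008G090300 stood at 71.6 ± 10.8 FPKM in 120 cold, 2.42 ± 0.0995 FPKM in 120 control, 28.8 ± 4.14 FPKM in 093 cold and 1.80 ± 1.19 FPKM in 093 control. It rose by 4.40 in 120 and 3.49 in 093, and its cold level was higher in 120 than in 093 by 1.28 (limma adjusted p = 0.0023). Phvul.006G074600 came nearest to the pattern of Phvul.010G062500 in its controls, with at most 0.0573 FPKM in any control library, but it was also on in 093 cold.

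Phvul.006G074600 stood at 36.4, 45.8 and 18.2 FPKM in 120 cold, against 13.3, 11.7 and 14.6 FPKM in 093 cold, without overlap. Its responses were 4.97 in 120 and 3.78 in 093, and their difference of 1.19 was called (SE 0.365, limma adjusted p = 0.028). That call was lost in 8 of 18 alternatives, with adjusted p between 0.00028 and 0.071 over them, namely with a pseudocount of 0.1 and on leaving out 120 cold library 1 or 2, 120 control library 2 or 3, 093 cold library 1 or 2, or 093 control library 2. For the other 2 of these WRKY33 loci the difference of responses was positive but not called, at 0.91 (limma adjusted p = 0.067) for Phvul.008G090300 and 0.82 (limma adjusted p = 0.039) for Phvul.008G251300. Median-ratio scaling brought both over the threshold, at 1.15 and 1.14. Leaving out 093 control library 2 did so for Phvul.008G090300 (1.19), and quantile normalization for Phvul.008G251300 (1.15).

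Among the other WRKY40 loci, Phvul.005G181800 stood at 70.1 ± 14.9 FPKM in 120 cold, 4.06 ± 0.126 FPKM in 120 control, 48.8 ± 1.05 FPKM in 093 cold and 4.09 ± 2.06 FPKM in 093 control. Phvul.009G087400 stood at 28.4, 16.6 and 11.8 FPKM in 120 cold, against 11.5, 11.05 and 10.1 FPKM in 093 cold, and at most 0.0582 FPKM in any control library. Phvul.001G042100, whose name precedes that of Phvul.001G042200, had 8.76, 8.11 and 18.1 FPKM in the 120 cold libraries, against 12.7, 14.5 and 13.7 FPKM in the 093 cold libraries. As at Phvul.001G042200, 120 cold library 3 was the highest of its group at this locus, whereas at Phvul.009G087400 it was the lowest. The difference of responses was called at none of these 3 WRKY40 loci by limma, with values of 0.42, 0.65 and -0.26 and adjusted p of 0.38, 0.16 and 0.57.

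**Figure D2:**
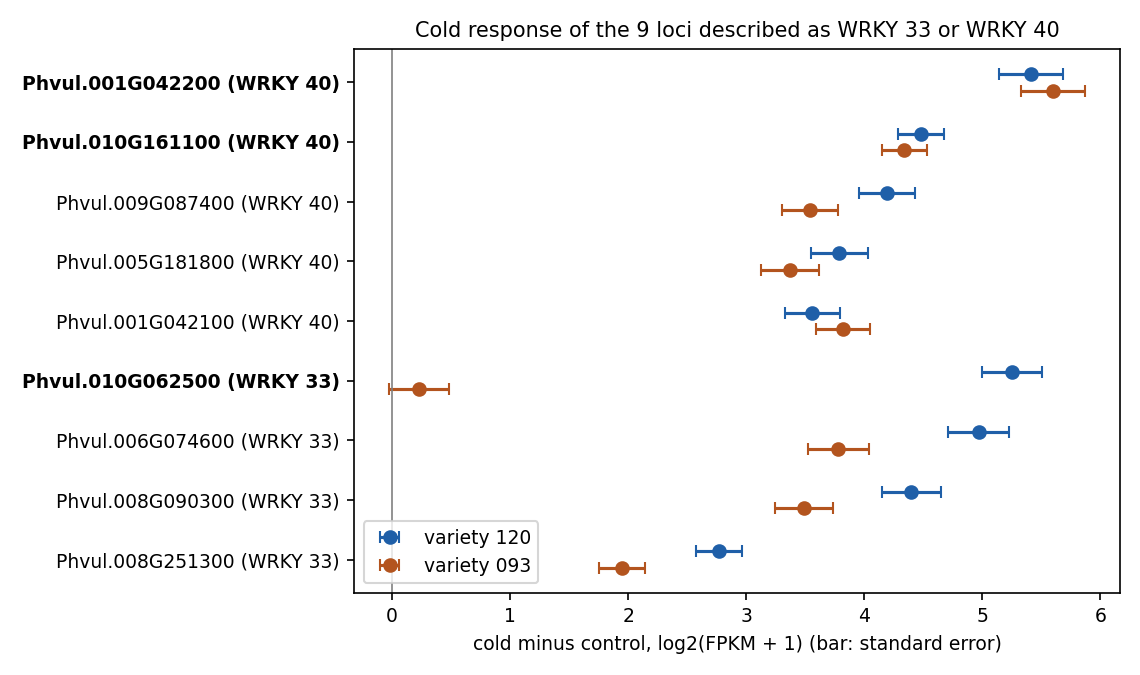
Fitted cold response, cold minus control on log2(FPKM + 1), of the 9 loci described as WRKY 33 or WRKY 40 in variety 120 (blue) and variety 093 (brown), with standard errors. The 3 loci in bold were chosen on these values. Phvul.010G062500 is at 0.23 in 093, and the other 8 loci lie between 1.95 and 5.60 there.

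In 120 cold the order of mean level among the 9 loci ran from Phvul.008G251300 (192 FPKM) through Phvul.008G090300, Phvul.005G181800, Phvul.001G042200 (49.7 FPKM), Phvul.010G062500 (41.1 FPKM), Phvul.006G074600, Phvul.010G161100 (31.5 FPKM) and Phvul.009G087400 to Phvul.001G042100 (11.7 FPKM). Only the first stood clear of the next, since the libraries of each later neighbour overlapped. In 093 cold Phvul.010G062500 was last, at no more than 0.931 FPKM, and the next lowest locus, Phvul.009G087400, stood at 10.1 FPKM or more. The 4 WRKY33 loci summed to 388, 337 and 291 FPKM in 120 cold, against 172, 177 and 194 FPKM in 093 cold. Phvul.010G062500 gave 10.5% to 13.8% of that sum in 120 cold and 0.226% to 0.481% in 093 cold. The 5 WRKY40 loci summed to 161, 167 and 217 FPKM in 120 cold, against 157, 156 and 155 FPKM in 093 cold. These sums hold the 3 loci chosen on their values, and the 2 WRKY40 loci among them gave 34.0% to 54.6% of the WRKY40 sum in the cold libraries. Without them the 3 other WRKY40 loci summed to 93.2, 110.5 and 98.4 FPKM in 120 cold, against 71.8, 75.0 and 73.2 FPKM in 093 cold. The 3 other WRKY33 loci summed to 335, 301 and 256 FPKM in 120 cold, against 171, 177 and 193 FPKM in 093 cold. Both remainders were thus higher in every 120 cold library than in any 093 cold library.

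Across the whole family, 84 descriptions named WRKY and 52 of these loci passed the filter of at least 1 FPKM in at least 3 libraries. Leaving out the 3 loci chosen on their values, the other 49 gave 34 rises and 4 falls under cold in 120, with a median response of 1.56, and 29 rises and 4 falls in 093, with a median of 1.27. Of all tested loci 27.8% were called higher and 18.6% lower in 120, and 33% and 15.2% in 093. With all 52 counted, the rises numbered 37 in 120 and 31 in 093, and 33 to 35 and 24 to 25 when the libraries were rescaled by median ratios or quantiles. The 16 other tested loci with the KEGG entry of the 3 genes gave 12 rises in 120 (median 1.69), and 10 rises and 1 fall in 093 (median 1.65). Of the 49, 26 rose in both varieties, 8 were called higher in 120 but not in 093, and 3 in 093 but not in 120. A call in 1 variety does not show a difference between them, and the difference itself was called for 4 of the 8. Of all 14716 tested loci, 3298 rose in both varieties and 779 were called higher in 120 and not called in 093. The difference was called for 318 of these 779. The difference of responses was called higher in 120 for 9 and lower for 3 of the 49, where 6.5% of all tested loci were called higher and 13.1% lower. Under cold 10 of the 49 were higher and 2 lower in 120 than in 093, against 5.62% and 7.03% of all loci. Without cold 0 of the 49 were called higher in 120 and 3 lower by limma, against 6.34% and 4.44% of all loci, and 8 of all 52 had an unadjusted p under 0.05.

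Phvul.010G062500 had the largest difference of responses among the 52. The next was a locus described only as a WRKY family transcription factor, Phvul.002G297100, named after its values were seen. It stood at 13.5, 9.85 and 21.1 FPKM in 120 cold, against 0.0899, 0.0458 and 0.531 FPKM in 120 control. In variety 093 it had 1.48, 1.27 and 2.09 FPKM in 093 cold, against 0.402, 0.449 and 5.32 FPKM in 093 control. Its difference of 3.51 (SE 0.695, limma adjusted p = 0.0033) was called under all 18 alternatives. The largest responses of the family outside WRKY 33 and 40 included WRKY 51 (Phvul.002G265400), which rose to 12.7 ± 1.94 FPKM in 120 cold, against 0.0993 ± 0.112 FPKM in 120 control, and to 26.9 ± 1.56 FPKM in 093 cold, against 0.281 ± 0.169 FPKM in 093 control.

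**Figure D3:**
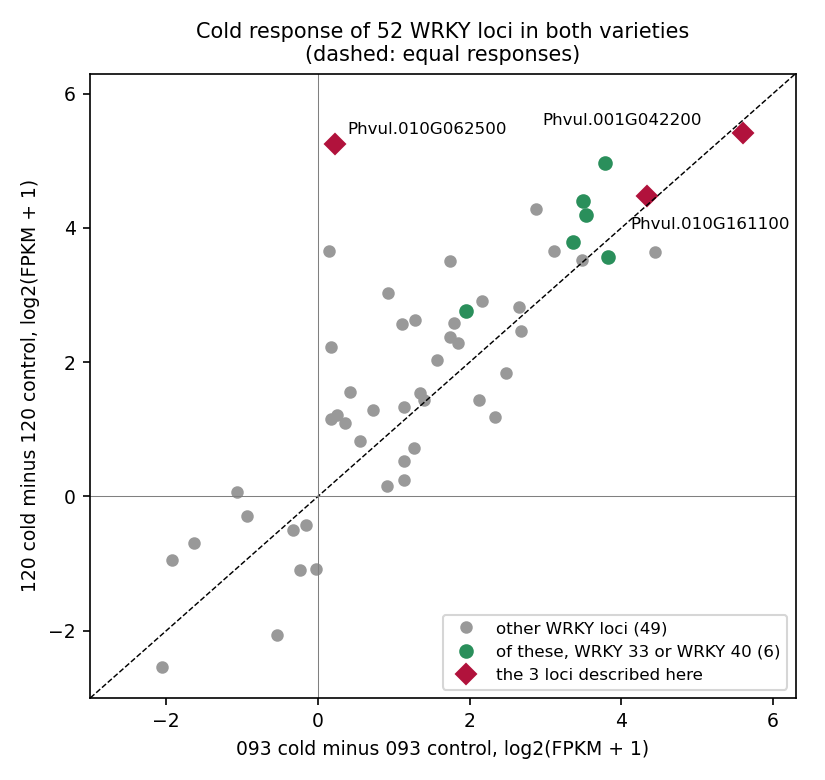
Cold response of 52 tested WRKY loci in variety 120 (vertical axis) against variety 093 (horizontal axis), both on log2(FPKM + 1), with a dashed line for equal responses. Both WRKY40 loci lie by the line near 4.3 and 5.6 on the horizontal axis, and Phvul.010G062500 lies at 0.23 on it and 5.25 on the vertical axis.

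The gene lists that follow can be read against the whole table, where 27.8% of all tested loci were called higher and 18.6% lower in 120, and 33% and 15.2% in 093. The MAP kinase cascade carries signals from surface receptors to WRKY33 in Arabidopsis. Among 33 tested loci of the cascade, there were 15 rises and 3 falls in 120 (median 0.58), and 16 rises and 0 falls in 093 (median 0.96) by limma, where 25 had an unadjusted p under 0.05. The rises were 45.5% of the list in 120 and 48.5% in 093, above the shares of all loci. Both scalings gave 10 rises and 2 falls in 093, and 9 to 12 rises and 3 falls in 120. The difference of responses was called higher in 120 for 2 and lower for 5 of the 33, against 6.5% and 13.1% of all tested loci. MAP kinase kinase 2 (Phvul.009G229800), a kinase whose Arabidopsis namesake is activated by cold and salt, had the largest called difference of responses. It stood at 57.4, 59.5 and 33.4 FPKM in 120 cold, against 0.899, 1.27 and 1.04 FPKM in 120 control. In variety 093 it had 3.31, 3.23 and 2.99 FPKM in 093 cold, against 1.55, 1.0005 and 1.39 FPKM in 093 control. Like Phvul.010G062500 it was far higher in 120 cold than in any other group, but its 093 libraries did not overlap between cold and control. Its response was 4.59 in 120 and 0.86 in 093, and the difference of 3.73 (SE 0.289, limma adjusted p = 1.1e-05) was called under all 18 alternatives. With a pseudocount of 0.1 its 093 response was 1.23 and called as well. Another locus described as MAP kinase kinase 2, Phvul.003G134100, rose by 2.07 in 120 and by 1.63 in 093, and its difference of 0.44 was not called.

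MAP kinases 3 and 6 are the kinases known to phosphorylate WRKY33 in Arabidopsis, and the bean loci so described are named here after their values were seen. MAP kinase 3 (Phvul.011G071400) stood at 213, 171 and 159 FPKM in 120 cold, against 39.8, 39.5 and 45.1 FPKM in 120 control. In variety 093 it had 78.8, 82.5 and 83.2 FPKM in 093 cold, against 38.4, 28.2 and 66.0 FPKM in 093 control. It rose by 2.09 in 120, its 0.96 in 093 was not called, and the difference of 1.13 was called (limma adjusted p = 0.025). Without 120 cold library 1, 093 cold library 1 or 093 control library 3 the difference was 1.01, 1.11 or 0.81 and no longer called, and without 093 control library 3 the 093 response was 1.28 and called. MAP kinase 6 (Phvul.003G059500) changed by 0.45 in 120 and 0.68 in 093 and was not called. MAP kinase 4 (Phvul.010G102800) rose to 74.7 ± 25.3 FPKM in 120 cold, against 6.73 ± 1.42 FPKM in 120 control, and to 37.8 ± 2.05 FPKM in 093 cold, against 6.85 ± 1.45 FPKM in 093 control. Another MAP kinase 4 locus, Phvul.002G292400, rose by 1.12 in 093, but its -0.49 in 120 was not called. Its difference of -1.61 was called (limma adjusted p = 0.00032). MSTRG.2138, which carries MAP kinase 4 beside another description, rose by 1.73 in 120 and by 1.75 in 093.

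VQ-motif proteins bind WRKY factors, and 1 of 11 such loci passed the filter. This locus, Phvul.002G316800, had 3.16, 2.36 and 1.51 FPKM in the 120 cold libraries, against 0.710, 0.762 and 0.384 FPKM in the 093 cold libraries. Of its 6 control libraries it was listed at 0 in 4, with 0.0724 FPKM in 120 control library 2 and 0.429 FPKM in 093 control library 3. It rose by 1.68 in 120, and its 0.51 in 093 was not called (2.00, called, with a pseudocount of 0.1). The difference of 1.16 (limma adjusted p = 0.011) was lost with a pseudocount of 0.1 (adjusted p = 0.069) and fell to 0.99 without 120 cold library 1 or 093 control library 3. The locus reached 1 FPKM in 120 cold only, so it passed the filter through that group alone. Its called difference is therefore not independent of the filter.

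Upstream of the kinases, a list of pattern receptors, receptor-associated kinases and oxidases had 18 tested loci, with 9 rises and 2 falls in 120 and 9 rises and 1 fall in 093, or rises in 50% of the list in both. Respiratory burst oxidases, which are neither receptors nor kinases, made up 6 of the 18, with 4 rises and 1 fall in each variety. The 12 others gave 5 rises and 1 fall in 120, and 5 rises in 093. Both scalings gave 3 falls in 093, and a pseudocount of 0.1 or the absence of 093 cold library 3 or 093 control library 1 or 2 gave 2. Respiratory burst oxidase B (Phvul.006G090200), which makes superoxide at the cell surface, rose to 148 ± 56.9 FPKM in 120 cold, against 0.659 ± 0.156 FPKM in 120 control, and to 44.8 ± 3.61 FPKM in 093 cold, against 0.527 ± 0.389 FPKM in 093 control. A LysM domain protein (Phvul.002G188800), of a family that binds chitin, rose to 123 ± 27.5 FPKM in 120 cold, against 2.29 ± 0.310 FPKM in 120 control, and to 55.4 ± 1.28 FPKM in 093 cold, against 1.57 ± 0.564 FPKM in 093 control. The difference of responses was called for the oxidase, at 1.47 (limma adjusted p = 0.014, and 0.12 with a pseudocount of 0.1). The LysM locus missed the threshold on size, at 0.74, and reached it only with median-ratio scaling. A BAK1-interacting receptor-like kinase (Phvul.008G050700) had 29.7 ± 5.97 FPKM in 120 cold, 2.30 ± 0.230 FPKM in 120 control, 11.7 ± 1.36 FPKM in 093 cold and 3.31 ± 2.50 FPKM in 093 control. Its called difference of 1.49 (limma adjusted p = 0.028) was lost in 6 of 18 alternatives, with a pseudocount of 0.1 and without 120 cold library 1 or 2, 120 control library 3, or 093 cold library 1 or 2. Among the 18 tested loci the difference was called higher in 120 for 2 and lower for 2, against 6.5% and 13.1% of all tested loci. The lower ones were an oxidase D (Phvul.002G279700, -1.26) and a BRI1-associated receptor kinase (Phvul.002G206900, -1.40). The other oxidase B locus, Phvul.007G196800, rose by 1.95 in 120 and by 2.26 in 093, with a difference of -0.31, not called.

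Downstream, gene types with known WRKY33 targets in Arabidopsis were ACC synthases, which make the ethylene precursor, the jasmonate repressor JAZ1, and NCED enzymes of abscisic acid synthesis. The list was not split by whether WRKY33 activates or represses a target, so rises in it do not measure WRKY33 action. The 8 tested loci of these types gave 5 rises and 1 fall in 120 (median 1.73), and 6 rises and 1 fall in 093 (median 1.78). The rises were 62.5% of these loci in 120 and 75% in 093, against 27.8% and 33% of all loci. They include MSTRG.2829, which carries ACC synthase 7 beside a mitochondrial ATP synthase subunit and rose by 1.68 in both varieties. ACC synthase 12 (Phvul.004G126400), which rose by 1.78 in 120 and by 1.87 in 093, was also taken by its words, not as a known target. The difference of responses was called for 0 of the 8 by limma, and 3 had an unadjusted p under 0.05. For all tested loci this difference was called higher in 120 at 6.5% and lower at 13.1%. JAZ1 (Phvul.009G225300) stood at 394, 418 and 298 FPKM in 120 cold, against 11.4, 8.45 and 10.1 FPKM in 120 control. In variety 093 it had 253, 262 and 267 FPKM in 093 cold, against 8.96, 6.40 and 46.1 FPKM in 093 control. It was thus high in both cold groups, with 093 control library 3 above the other controls, and its difference of 0.96 was not called (limma adjusted p = 0.33). The locus that fell was ACC synthase 10 (Phvul.002G152200), named after an Arabidopsis enzyme that acts as an aminotransferase, at 0.631 ± 0.198 FPKM in 120 cold, 26.4 ± 3.91 FPKM in 120 control, 1.34 ± 0.777 FPKM in 093 cold and 20.3 ± 3.37 FPKM in 093 control.

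Gene types with known WRKY40 targets in Arabidopsis gave 8 rises and 1 fall among 10 tested loci in 120 (median 2.40), and 9 rises and 1 fall in 093 (median 2.20). These rises were 80% of the list in 120 and 90% in 093, against 27.8% and 33% of all loci. Of these, 3 were DREB2A-interacting proteins, matched by the words of the list rather than as targets, which rose in both varieties. Without them the 7 others gave 5 rises and 1 fall in 120, and 6 rises and 1 fall in 093. Alternative oxidase 2 (Phvul.002G209200), a mitochondrial enzyme that bypasses part of the respiratory chain, rose to 70.1 ± 21.2 FPKM in 120 cold, against 2.22 ± 0.356 FPKM in 120 control, and to 35.1 ± 1.36 FPKM in 093 cold, against 1.41 ± 0.474 FPKM in 093 control. Another locus with this description, Phvul.002G209100, rose by 1.03 in 093, but its -0.08 in 120 was not called. The abscisic acid response factor ABF2 (Phvul.009G065500) rose to 44.98 ± 4.54 FPKM in 120 cold, against 2.32 ± 0.165 FPKM in 120 control, and to 29.4 ± 13.98 FPKM in 093 cold, against 1.73 ± 0.253 FPKM in 093 control. The other ABF2 locus, Phvul.003G291800, was the 1 that fell, with changes of -2.43 in 120 and -1.23 in 093. The jasmonate repressor JAZ8 (Phvul.006G165800) had 15.2 ± 5.69 FPKM in 120 cold, 0.0629 ± 0.0938 FPKM in 120 control, 5.35 ± 1.66 FPKM in 093 cold and 0.101 ± 0.101 FPKM in 093 control. Its difference of 1.38 was called (limma adjusted p = 0.016, and 0.083 with a pseudocount of 0.1). Among the 10 loci the difference was called higher in 120 for 1 and lower for 2, against 6.5% and 13.1% of all tested loci. The lower ones were Phvul.002G209100 (-1.11) and Phvul.003G291800 (-1.20).

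The 25 tested salicylic acid and disease resistance regulators gave 9 rises and 10 falls in 120, and 8 rises and 6 falls in 093, where both scalings gave 7 rises and 8 or 9 falls. Rises made up 36% of the list in 120 and 32% in 093, near the 27.8% and 33% of all loci, and falls made up 40% and 24%, against 18.6% and 15.2% of all loci. Of these 25, 14 were MLO family membrane proteins, with 4 rises and 7 falls in 120 and 2 rises and 3 falls in 093. A calmodulin-binding protein (Phvul.002G318100) rose to 61.9 ± 13.9 FPKM in 120 cold, against 2.76 ± 0.313 FPKM in 120 control, and to 35.8 ± 0.350 FPKM in 093 cold, against 0.653 ± 0.128 FPKM in 093 control. SAG101 (Phvul.004G020000), an immune regulator in Arabidopsis, rose to 103 ± 17.0 FPKM in 120 cold, against 4.15 ± 0.254 FPKM in 120 control, and to 92.9 ± 2.11 FPKM in 093 cold, against 6.60 ± 2.83 FPKM in 093 control. Isochorismate synthase 2 (Phvul.010G011700) fell, with changes of -3.67 in 120 (limma adjusted p = 1.9e-09) and -3.41 in 093 (limma adjusted p = 3.3e-09). A locus with 2 descriptions, 1 of them suppressor of npr1-1 constitutive 4 (MSTRG.386), stood at 0.810 ± 0.0833 FPKM in 120 cold, 0.847 ± 0.0899 FPKM in 120 control, 0.264 ± 0.0577 FPKM in 093 cold and 8.72 ± 1.21 FPKM in 093 control. Its difference of responses was 2.91, whereas MSTRG.392, also described as that suppressor, had a called difference of -1.77, and MSTRG.5297 had 0.94, not called. Among the 25 loci the difference was called higher in 120 for 2 and lower for 4, against 6.5% and 13.1% of all tested loci.

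The 25 tested pathogenesis-related loci gave 10 rises and 8 falls in 120, and 5 rises and 5 falls in 093, where both scalings gave 3 rises and 6 falls and a pseudocount of 0.1 gave 9 rises. In shares that is 40% higher and 32% lower in 120, against 27.8% and 18.6% of all loci, and 20% higher and 20% lower in 093, against 33% and 15.2%. Phosphatase subunits, homeodomain proteins and a receptor kinase matched by word made up 6 of the 25, and the 19 others gave 10 rises and 6 falls in 120, and 5 rises and 4 falls in 093. These 19 still hold MSTRG.9539, which carries a thaumatin description beside rubisco activase. It fell in both varieties, with changes of -2.68 in 120 and -1.72 in 093. Without 120 cold library 1 the falls in 120 numbered 5, and without 093 cold library 1 the rises in 093 numbered 3. Chitinase-like protein 2 (MSTRG.11420) fell to 1.19 ± 1.04 FPKM in 120 cold, against 34.2 ± 11.8 FPKM in 120 control, and to 2.93 ± 2.00 FPKM in 093 cold, against 71.9 ± 5.84 FPKM in 093 control. A phosphatase 2A subunit (Phvul.009G176600), matched by the letters PR in its name, fell by 2.49 in 120 and by 2.87 in 093. A pathogenesis-related family protein (Phvul.009G135800) rose to 26.9 ± 7.01 FPKM in 120 cold, against 8.47 ± 1.89 FPKM in 120 control, and stood at 28.4 ± 1.43 FPKM in 093 cold and 30.6 ± 9.17 FPKM in 093 control.

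**Figure D4:**
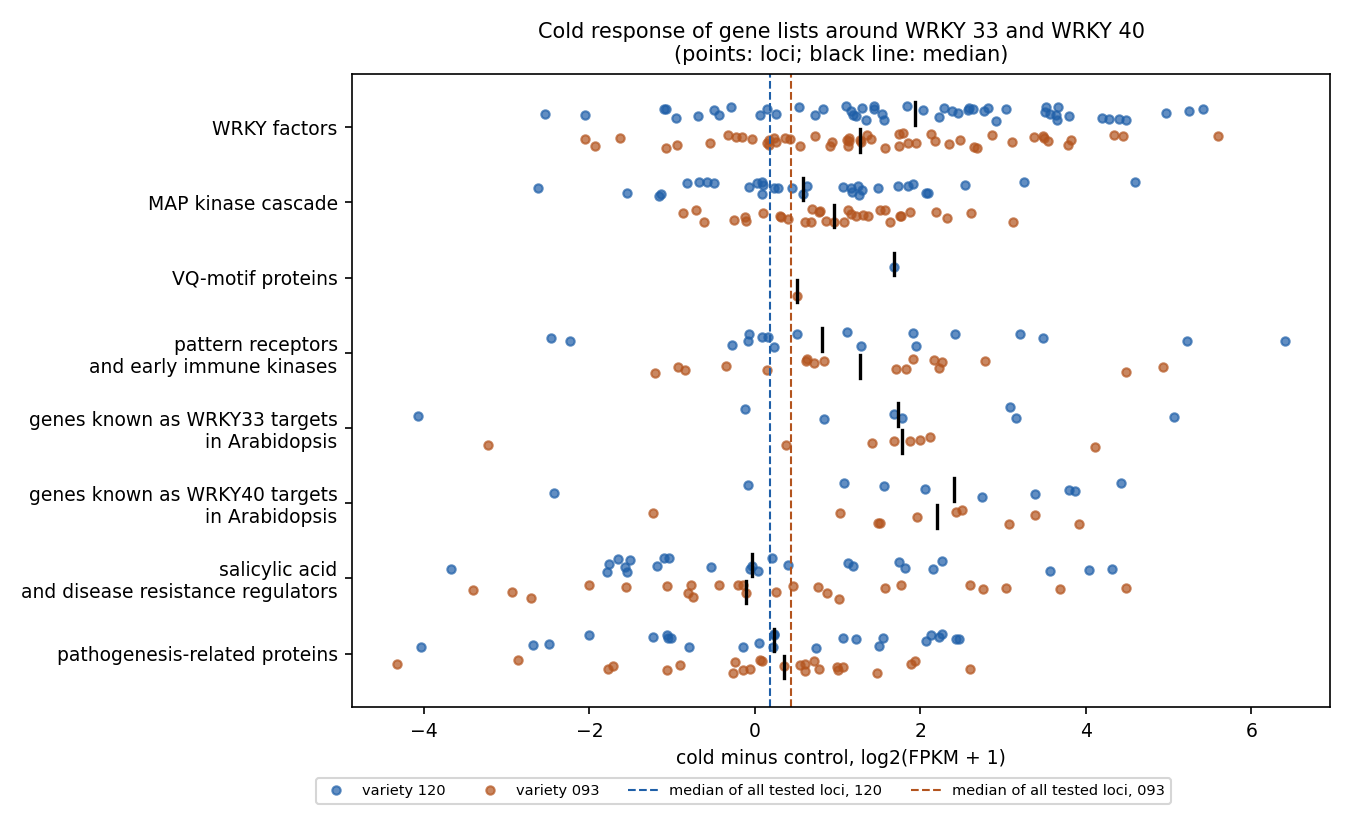
Cold response of tested loci in 8 gene lists around WRKY 33 and WRKY 40, cold minus control on log2(FPKM + 1), in variety 120 (blue) and variety 093 (brown), with black lines for list medians and dashed lines for the medians of all tested loci (0.18 in 120 and 0.43 in 093). WRKY factors and the types with WRKY33 or WRKY40 targets have medians of 1.28 or more in both varieties, and the last 2 lists have medians between -0.11 and 0.35. The WRKY list holds the 3 loci chosen on these values, and without them its medians are 1.56 in 120 and 1.27 in 093.

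The loci whose levels followed Phvul.010G062500 most closely over the 12 libraries, among 11457 described loci with their own gene name, were MYB domain protein 2 (Phvul.001G215100, r = 0.991), glycerol-3-phosphate acyltransferase 3 (Phvul.007G212600, r = 0.985) and an NB-ARC disease resistance protein (Phvul.002G133400, r = 0.984). Pearson's r was taken on log2(FPKM + 1), and it rests largely on the contrast of 120 cold with the other groups. MYB domain protein 2 had 4.74, 3.83 and 3.03 FPKM in the 120 cold libraries, against 0.175, 0.112 and 0.149 FPKM in the 093 cold libraries, and was listed at 0 in all 6 control libraries. The acyltransferase, which builds glycerolipids, stood at 3.58, 4.10 and 3.25 FPKM in 120 cold, against 0.328, 0.301 and 0.385 FPKM in 093 cold. The disease resistance locus stood at 5.92, 4.89 and 5.34 FPKM in 120 cold, 0.185 FPKM in 120 control library 2, and was listed at 0 in the other 8 libraries. Each of these 3 loci was thus low in absolute terms, and lower in 120 cold than the WRKY33 locus. In all 40 described loci had an r above 0.95 with Phvul.010G062500.

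**Figure D5:**
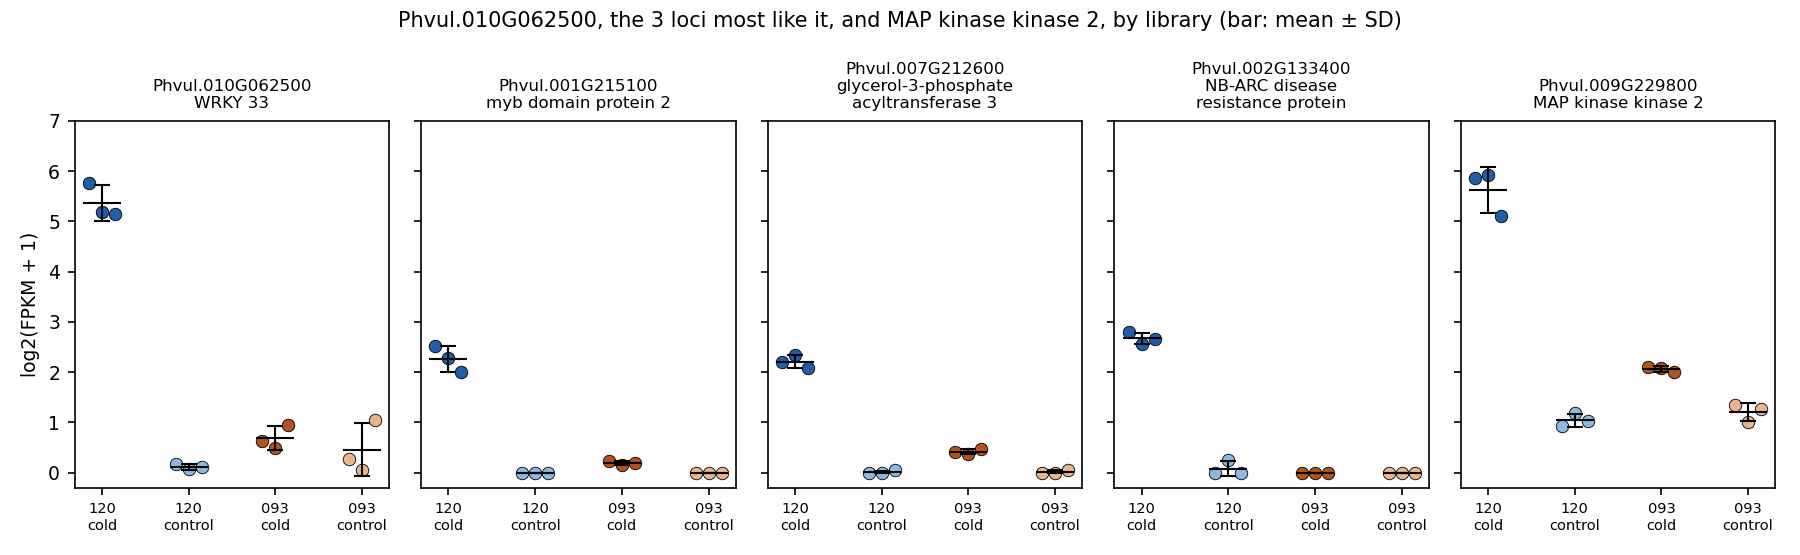
Level by library, as log2(FPKM + 1), of Phvul.010G062500, the 3 described loci with the highest r with it, and MAP kinase kinase 2, with points for libraries and bars for mean ± SD of a group's 3 libraries. In every panel the 3 libraries of 120 cold lie above the other 9.

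The WRKY40 loci had far more company, with 1677 described loci above an r of 0.95 for Phvul.010G161100 and 1601 for Phvul.001G042200. The closest to Phvul.010G161100 were general regulatory factor 2 (Phvul.008G162500), a 14-3-3 protein, ribosomal protein L10 (Phvul.002G074600) and a reticulon (Phvul.010G105400), each at r = 0.997. The closest to Phvul.001G042200 were ribosomal proteins L30/L7 (Phvul.009G234700) and S7e (Phvul.002G317200) and the neighbouring WRKY40 locus Phvul.001G042100, each at r = 0.998. The 2 WRKY40 loci had r = 0.992 with each other, and 0.616 and 0.617 with Phvul.010G062500. With the other 3 WRKY33 loci the r of Phvul.010G062500 was between 0.742 and 0.790.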

How the data were processed

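RNA was measured in 12 leaf libraries, and the authors deposited 1 FPKM table in which each library has its own column, per the file headers. Per the labels' protocols the libraries were poly(A)-selected and stranded. Per the submitters' processing notes StringTie 1.3.4d, HISAT2 2.0.4 and cutadapt 1.9 were used, with DESeq2 and edgeR named without a role. The genome build is not given in the sources used here, and sequences and coordinates were not analysed here. From a RefSeq table, 0 of 34165 genes matched the gene names.

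The 14716 loci that reached 1 FPKM in 3 or more libraries were fitted in R 4.3.3 with limma 3.58.1 on log2(FPKM + 1), with 1 mean per group over all 12 libraries and a variance trend. Two-sided p-values received the Benjamini-Hochberg adjustment, contrast by contrast. The 8 gene lists were words matched in descriptions. Besides the 3 loci, all others described as WRKY 33 or 40 were named. From each list the 2 called loci (4 for WRKY factors) with the largest mean response and the 1 with the largest called difference of responses were named. The 3 loci closest to each of the 3 genes by r over the 12 libraries were named too. Further list loci were named outside these rules, among them isochorismate synthase 2 and other loci that share a description with a named one. The members and lists were chosen with earlier results of these data known. The code was tested on simulated data. Alternatives were a pseudocount of 0.1, no filter, median-ratio scaling, quantile normalization, a replicate block, fits of the 2 groups compared, no variance trend, and leaving out each library.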

Additional observations from a re-analysis of the deposited data

Results flagged for a closer look

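At 10 loci named in the report the difference of cold responses was called higher in 120 by limma (120 minus 093, log2 scale). This count leaves out the 3 WRKY genes and the loci picked for their likeness to them, which were all chosen on these values. The differences were 3.73 for MAP kinase kinase 2 (Phvul.009G229800), 3.51 for the WRKY locus Phvul.002G297100, 2.91 for MSTRG.386, 1.61 for the pathogenesis-related Phvul.009G135800, 1.49 for the receptor-like kinase Phvul.008G050700, 1.47 for respiratory burst oxidase B (Phvul.006G090200), 1.38 for JAZ8 (Phvul.006G165800), 1.19 for the WRKY33 locus Phvul.006G074600, 1.16 for the VQ-motif Phvul.002G316800 and 1.13 for MAP kinase 3 (Phvul.011G071400). The difference was called lower in 120 at other named loci. These were MSTRG.392 (-1.77), Phvul.002G292400 (-1.61), Phvul.002G206900 (-1.4), Phvul.002G279700 (-1.26), Phvul.003G291800 (-1.2) and Phvul.002G209100 (-1.11). Most of the 10 higher loci were named for the largest called difference of their list or after their values were seen. Their shared direction therefore cannot be read as a result. Phvul.002G316800 reached 1 FPKM only in 120 cold, and MSTRG.386 only in 093 control, so the filter admitted each through that group. Of all tested loci, the difference was called higher in 120 for 6.5% and lower for 13.1%. At MSTRG.386 the difference came with a fall in 093 (log2 change -2.94) and a 120 value of -0.03 that was not called, and it was the largest of its list, which the naming rule selects for.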

How the results depend on the processing

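Alternatives moved 18 values of the 3 WRKY loci by more than their spread between libraries, besides those from leaving out 1 library. With a pseudocount of 0.1 the responses in 120 and 093 were 7.80 and 0.91 for Phvul.010G062500, 5.94 and 5.35 for Phvul.010G161100, and 7.91 and 8.90 for Phvul.001G042200. Their differences were then 6.89, 0.59 and -0.99, the varieties without cold differed by -1.03, -0.77 and 0.91, and under cold Phvul.010G062500 differed by 5.85. Median-ratio scaling gave Phvul.010G161100 3.94 in 093 and a difference of 0.40. Quantile normalization gave it 4.13 in 120 and 3.94 in 093, and gave Phvul.010G062500 -0.15 in 093. The cause was not tested. Leaving out 1 library gave Phvul.001G042200 4.99 to 5.66 in 120, a difference of -0.61 to 0.05, and -0.49 to 0.18 between the varieties under cold. The numbers of loci called stayed within 1.5 times under each alternative run. Calls in 120 were 60% higher as deposited, and 52.8% and 49.4% under median-ratio scaling and quantile normalization; in 093 they were 68.4%, 49.7% and 49%, and for the difference 33.1%, 55.1% and 50%. These scalings moved the median response of all loci to 0.02 and -0.04 in 120.
Same-numbered libraries showed little shared deviation (r between -0.08 and 0.049), which does not show a pairing but cannot exclude one. Between 120 cold and 093 cold each library was closest to its own number, at r of 0.018, 0.03 and 0.02. In the other pairs of groups most libraries were not. The replicate block left the response of Phvul.010G062500 at 5.25 in 120 and called 6821 loci in 120 (6825 without it), 7098 in 093 (7096) and 2800 for the difference (2886). It changed no cold response or difference call of the loci named by rule or after their values were seen. List rises and falls under cold stayed the same too. Differences at other loci, list counts of called differences, and calls between varieties within a treatment were not followed under the alternatives. Read totals are unknown, so no counting interval could be given for the low control levels.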
